A study of Mus musculus with 12 samples.

Results

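The expression of 33 genes that carry out mitosis was followed through the conversion of mouse fibroblasts to pluripotent cells. The genes were chosen by symbol for their known roles in chromosome segregation and cell division. All 33 were found among the 24098 genes of the deposited table, and all 33 were among the 14178 genes kept, those that reached 1 FPKM (fragments per kilobase of transcript, scaled to the mapped fragments of the library) in at least 1 library. The samples were 12 libraries of polyA RNA, 1 for each of 12 conditions, so no difference was measured against a spread between replicates and no p-value is given. D0 was mouse embryonic fibroblasts (MEFs), labelled WT, from embryos with a GFP cassette behind the Oct4 gene, grown in serum. D3 was MEFs on day 3 after infection with retroviruses for Oct4, Sox2, Klf4 and c-Myc (OSKM), in FF medium, which has serum replacement, LIF, basic FGF, CHIR99021, N-2 and ascorbic acid. Later cells, infected and grown in the same way, were sorted. D6T- and D9T- lacked the fibroblast surface marker Thy-1 on days 6 and 9, while D6T+ and D9T+ carried it. D12S+ and D16S+ carried the pluripotency-associated carbohydrate SSEA-1 on days 12 and 16, while D12S- and D16S- lacked it. The study treats Thy-1- and SSEA-1+ cells as the successful route and the opposite fractions as the unsuccessful route. Fully reprogrammed iPSCs and the embryonic stem cell line ES-D3, labelled WT (mESCs), were the end points. The labels put both in FF medium, whereas the methods of the study name other LIF media for such lines and several media for reprogramming. D0 and the later libraries thus differed in medium as well as in OSKM, and these cannot be told apart.

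Mitosis is driven by CDK1 bound to cyclin A2 or B, and it ends when the anaphase-promoting complex, a ubiquitin ligase activated by CDC20, marks cyclin B and securin for destruction. The chromosomal passenger complex, the kinetochore and the spindle checkpoint make sure that each chromosome is attached to the spindle before that step. Most of these mRNAs peak in G2 and M phase, and mouse pluripotent cells are known for a short cycle with brief gap phases.

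The promoters of such genes are known to hold the cell cycle genes homology region (CHR), bound by the DREAM and MuvB complexes, and CCAAT boxes, bound by NF-Y. Of the 33 genes, 28 had an entry in the RefSeq promoter table (GRCm38.p6), with windows from 250 bases before to 50 bases after the start site. The CHR was searched as TTTGAA or TTTAAA and the NF-Y box as CCAAT, each on both strands. The CHR letters were found in 24 of the 28 genes (85.7%), against 30.6% of all 27025 genes in the table. CCAAT was found in 22 of the 28 (78.6%), against 41.1% of all genes, and both were found in 20 (71.4%), against 12.2%. Between 60 bases before the start site and the end of the window, a limit chosen after the other choices were fixed, the CHR was found in 22 of the 28 (78.6%), against 10.5% of all genes. Bub1, Nek2, Mad2l1 and Nuf2 had an entry without the CHR letters. A match is a description of the letters, not a measured site.

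The following promoters are those of the 5 genes with an entry and the CHR letters whose level had the widest range over the libraries, and that of Bub3, whose level had the narrowest. Capitals mark the CHR and CCAAT letters on either strand, and the positions are those of the single exact match in mm9, the build of the deposited table.
Ccnb1 promoter, chr13:101556392-101556691, minus strand: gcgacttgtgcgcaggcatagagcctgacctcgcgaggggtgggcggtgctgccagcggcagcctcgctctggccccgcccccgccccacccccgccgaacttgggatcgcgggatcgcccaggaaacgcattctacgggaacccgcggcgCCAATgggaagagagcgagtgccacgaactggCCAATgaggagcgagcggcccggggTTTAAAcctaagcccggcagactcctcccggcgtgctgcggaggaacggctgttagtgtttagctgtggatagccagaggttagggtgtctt
Espl1 promoter, chr15:102126474-102126773, plus strand: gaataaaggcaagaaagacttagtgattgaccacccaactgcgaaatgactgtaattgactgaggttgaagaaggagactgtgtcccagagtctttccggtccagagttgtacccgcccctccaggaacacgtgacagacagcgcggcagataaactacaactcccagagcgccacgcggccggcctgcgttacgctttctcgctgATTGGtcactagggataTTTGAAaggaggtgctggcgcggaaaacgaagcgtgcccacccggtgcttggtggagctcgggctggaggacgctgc
Birc5 promoter, chr11:117710301-117710600, plus strand: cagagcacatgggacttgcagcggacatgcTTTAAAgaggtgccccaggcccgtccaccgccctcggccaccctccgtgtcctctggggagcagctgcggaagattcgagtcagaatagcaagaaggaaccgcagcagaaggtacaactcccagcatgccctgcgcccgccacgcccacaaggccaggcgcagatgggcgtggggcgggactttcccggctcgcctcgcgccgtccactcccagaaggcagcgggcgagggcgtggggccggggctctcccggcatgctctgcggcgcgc
Ect2 promoter, chr3:27052727-27053026, minus strand: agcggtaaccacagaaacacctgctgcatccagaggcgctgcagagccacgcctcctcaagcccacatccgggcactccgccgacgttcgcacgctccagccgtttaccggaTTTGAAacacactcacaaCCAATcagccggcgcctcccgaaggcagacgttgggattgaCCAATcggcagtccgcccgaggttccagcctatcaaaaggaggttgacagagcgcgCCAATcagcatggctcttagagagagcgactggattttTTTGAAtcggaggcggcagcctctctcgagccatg
Bub1b promoter, chr2:118423697-118423996, plus strand: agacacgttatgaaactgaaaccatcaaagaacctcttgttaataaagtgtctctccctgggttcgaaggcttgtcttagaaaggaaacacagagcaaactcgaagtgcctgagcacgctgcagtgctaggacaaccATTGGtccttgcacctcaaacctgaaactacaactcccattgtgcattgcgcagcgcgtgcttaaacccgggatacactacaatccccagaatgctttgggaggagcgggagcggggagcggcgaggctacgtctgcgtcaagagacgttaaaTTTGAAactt
Bub3 promoter, chr7:138703634-138703933, plus strand: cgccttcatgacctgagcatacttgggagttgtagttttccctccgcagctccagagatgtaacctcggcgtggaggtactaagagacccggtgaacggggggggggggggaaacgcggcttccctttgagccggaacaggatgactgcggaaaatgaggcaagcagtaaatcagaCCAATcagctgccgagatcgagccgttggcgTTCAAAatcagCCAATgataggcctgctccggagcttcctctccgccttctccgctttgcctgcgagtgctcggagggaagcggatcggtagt
In Ccnb1, the TTTAAA begins 42 bases before the start site, with CCAAT boxes at 67 and 99 bases before it. Espl1 has TTTGAA at 27 bases and an inverted CCAAT box at 44 bases before the start, whereas the match in Birc5 lies 220 bases before it. The window of Bub3 also holds the CHR letters, on the opposite strand at 43 bases before the start, and CCAAT boxes at 32 and 74 bases.

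Sorted fractions and their markers went together. The depth of the libraries, estimated relative to D0 from the ratios of low values, was between 0.967 (D9T+) and 1.56 (D6T-), and total FPKM was between 484968 and 648264. The 6 fibroblast markers (Thy1, Col1a1, Col1a2, Col3a1, Pdgfrb and Twist1) were all lower in the successful fraction on each sorted day, and their summed FPKM was 7114 in D0, 33.3 in D16S+ and 427 in D16S-. The 6 pluripotency markers (Nanog, Dppa5a, Zfp42, Esrrb, Utf1 and Tdgf1) were all higher in it on each sorted day, with sums of 2.11, 4674 and 129.98 FPKM in the same order. The sum of 4 epithelial markers was 61.4 FPKM in D0, 689 in D16S+ and 1327 in D16S-, but the markers split on day 16. Cdh1 (129.9 FPKM in D16S+ and 44.6 in D16S-) and Epcam (150.3 and 74.6) were higher in D16S+. Krt8 (149 and 543 FPKM) and Krt18 (259 and 664) were higher in D16S-. On day 6 as well, Krt18 was lower in the successful fraction (6.21 FPKM in D6T- and 23.8 in D6T+), while the other 3 were higher. The sum of 5 leukocyte markers (Ptprc, Cd52, Tyrobp, Fcer1g and Coro1a) was between 0.844 FPKM in D9T+ and 7.99 in mESCs. In mESCs Coro1a had 6.86 FPKM, while Ptprc was listed at 0 there and in D16S+ and iPSCs. In D0 the sum was 7.46 FPKM, with Tyrobp at 3.38 and Fcer1g at 1.84.

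Along the successful route the mitosis genes reached their highest median level on day 16, though D3 and D9T- were below the starting fibroblasts. On the unsuccessful route every library had a median below that of the starting fibroblasts. The median level of the 33 genes, as log2(FPKM + 1), was 4.59 in D0, 4.16 in D3, 4.68 in D6T-, 4.26 in D9T-, 5.08 in D12S+ and 5.94 in D16S+. In D6T+, D9T+, D12S- and D16S- it was 4.18, 3.43, 4.14 and 3.85, and in iPSCs and mESCs 5.61 and 5.62. The median of all kept genes stayed between 2.98 and 3.17 on this scale. Of the 33 genes, 17 had their highest level in D16S+, 10 in mESCs, 4 in iPSCs, 1 in D12S+ and 1 in D0, and 26 had their lowest in D9T+ and 7 in D16S-. The same counts were not made over all kept genes, so they have no background. In these bulk samples, fewer dividing cells and less mRNA per cell cannot be told apart.

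**Figure D1:**
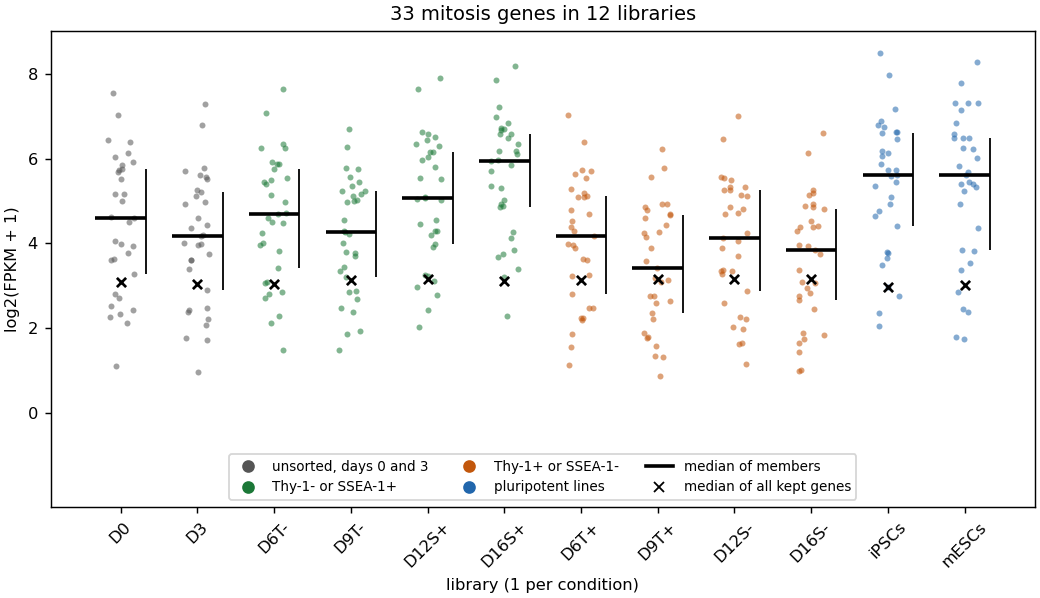
Level of each of the 33 mitosis genes (1 point per gene) in the 12 libraries on the log2(FPKM + 1) scale. Black bars are medians, thin lines the quartiles, and crosses the median of all kept genes. The median of the mitosis genes is highest in D16S+ (5.94) and lowest in D9T+ (3.43), while the crosses stay between 2.98 and 3.17.

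Ranks within a library, which no scaling between libraries can change, gave the same order at both ends. The median mitosis gene stood at percentile 71.6 of the kept genes in D0, 54.5 in D9T+, 61.2 in D16S-, 90.4 in D16S+, 86.0 in iPSCs and 86.1 in mESCs. Together the 33 genes made up 0.189% of the summed FPKM in D0, 0.0959% in D9T+ and 0.475% in D16S+. Their profiles over the 12 libraries were alike: the median Pearson r over 528 pairs of genes was 0.891, the lowest was 0.406, and 25 of the 33 had an r above 0.9 with the mean of the other 32. These r values describe points that share their library and depth. Neither the median r nor the count above 0.9 was computed over other genes, so they have no background. Kif2c, a kinesin that takes apart microtubule ends, followed the other genes most closely (r = 0.996), and Cenpe, a kinetochore motor, least (r = 0.668).

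**Figure D2:**
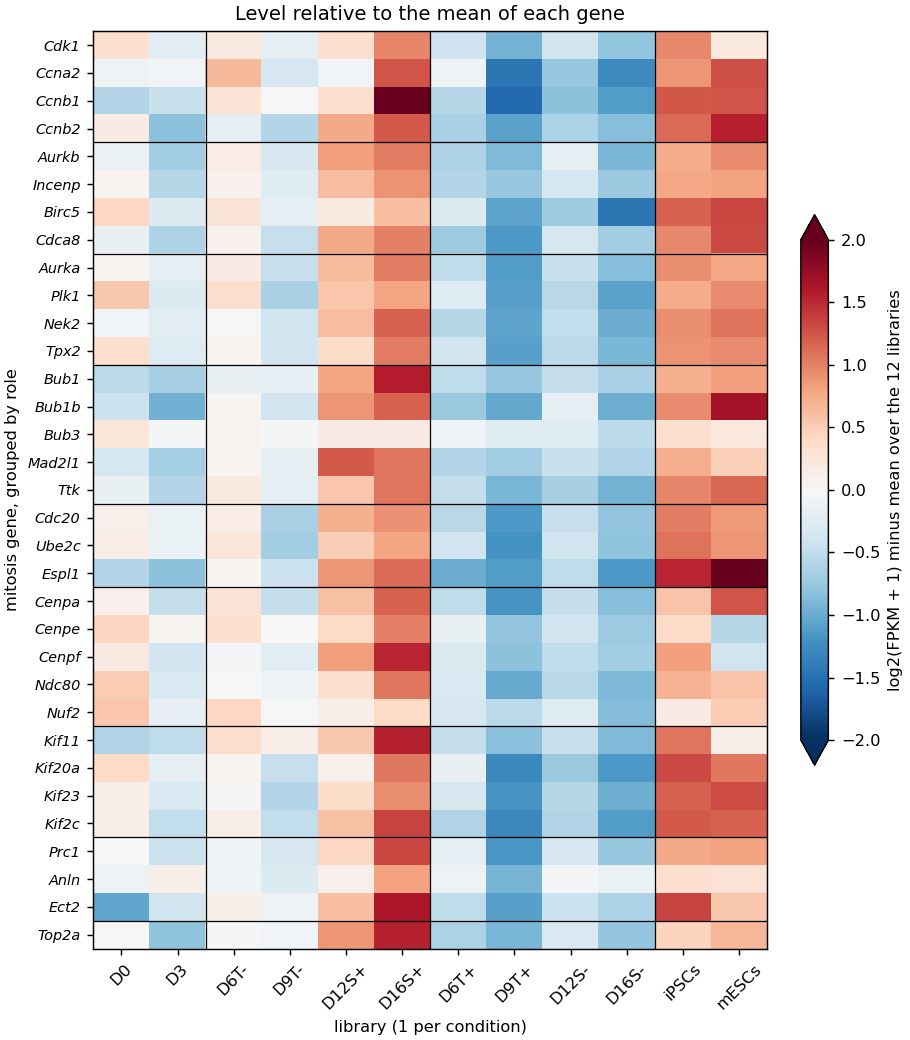
Level of each mitosis gene (rows, by role) in each library (columns), as the difference of log2(FPKM + 1) from the mean of the gene over the 12 libraries, red above and blue below. Of the 33 genes, 17 have their highest value in the D16S+ column and 26 their lowest in the D9T+ column, and Bub3 varies least. These counts were not made over all kept genes.

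To follow the onset of reprogramming, D3 was compared with D0. The mitosis genes were mostly lower in D3: the median log2 difference was -0.44, against -0.02 over all kept genes, and 28 of the 33 were lower. In the comparisons made here the median over all kept genes ran from -0.03 (D16S+ against D12S+) to 0.05 (D16S+ against D0). None of the 33 was at least 2-fold lower, where 8.67% of all kept genes were, and none at least 2-fold higher, where 5.76% were. Ccnb2, a B-type cyclin, had the lowest difference (-0.98), with 59.1 FPKM in D0 and 29.5 in D3. Top2a, the topoisomerase that untangles sister chromatids, was at 34.7 FPKM in D0 and 19.6 in D3. Of the 5 genes that were higher in D3 (Ccna2, Ccnb1, Kif11, Anln and Ect2), Ect2, the exchange factor that activates RhoA at the division plane, had the largest difference (0.64), from 3.84 FPKM in D0 to 6.51 in D3. Scaled to the same total FPKM the median was -0.21, in a setting that moved the median of all kept genes by 0.14.

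On day 6 the Thy-1- fraction was above D3 and the Thy-1+ fraction was not. From D3 to D6T- the median difference was 0.54 and 32 of 33 genes were higher, Anln being the exception (-0.20). At least 2-fold higher was 1 gene (background 3.96%), and none was at least 2-fold lower (background 6.62%). That gene was Bub1b (1.01), which encodes BUBR1, the checkpoint protein that holds back CDC20. From D3 to D6T+ the median was -0.03, with 12 genes higher and 21 lower, none of them by 2-fold in either direction (background 5.16% higher and 1.79% lower).

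On day 9 all 33 genes were lower than on day 6 in both fractions. In Thy-1- cells the median difference was -0.39 and 1 gene, Plk1 (-1.01), was at least 2-fold lower, where 1.14% of the kept genes were and 5.06% were 2-fold higher. In Thy-1+ cells it was -0.59, and 2 genes, Ccna2 (-1.35) and Kif20a (-1.14), were at least 2-fold lower, where 1.38% of the kept genes were and 4.92% were 2-fold higher. Relative depth was also lower on day 9, at 1.09 in D9T- and 0.967 in D9T+ after 1.56 in D6T- and 1.26 in D6T+, and its part in the result was not tested.

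From day 9 to day 12 the genes were higher again on both routes, apart from Bub3 in D12S- (-0.02), and from day 12 to day 16 the routes went apart. Between D9T- and D12S+ the median was 0.92, and 14 of 33 genes were at least 2-fold higher (background 7.05%) and none lower (background 3.3%). Between D9T+ and D12S- it was 0.57 with no gene past 2-fold (background 2.5% higher and 3.31% lower). Both steps also change the sorting marker from Thy-1 to SSEA-1, and marker and day cannot be told apart there. Between D12S+ and D16S+ the median was 0.57, and 4 genes were at least 2-fold higher (background 3.59%) and none lower (background 5.32%), with Ccnb1 first (1.64). Between D12S- and D16S- all 33 genes were lower, with a median of -0.39 and none past 2-fold (background 2.03% higher and 0.536% lower).

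The fractions of the same day were then compared, to see how the routes differ. All 33 genes were higher on the successful route on all 4 sorted days, as were 23.2% of the kept genes. The median difference was 0.62 on day 6, 0.68 on day 9, 1.02 on day 12 and 2.01 on day 16, against medians between -0.02 and 0.02 over all kept genes. At least 2-fold higher were 1 gene on day 6 (Espl1, background 2.93%), 2 on day 9 (Ccna2 and Ccnb1, background 1.81%), 18 on day 12 (background 4.79%) and 31 on day 16 (background 11.8%). None was at least 2-fold lower on any of these days, where 9.47%, 6.45%, 3.03% and 15.2% of the kept genes were. The difference was larger on each later day for 15 of the 33 genes (45.5%) and for 10.6% of the kept genes.

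**Figure D3:**
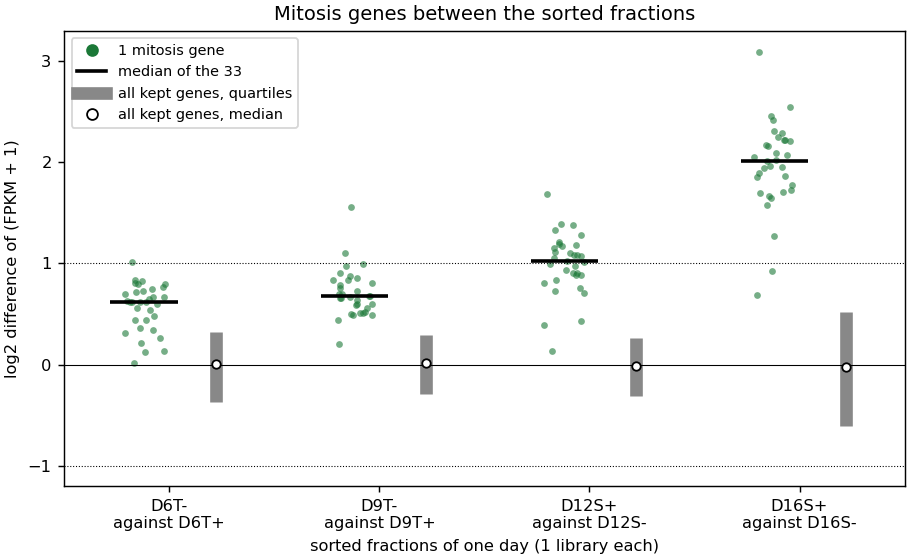
Difference in log2(FPKM + 1) between the sorted fractions of each day for the 33 mitosis genes (green points, black median bar) and for all kept genes (grey quartile bar, open median). All 33 points lie above 0 on each day, dotted lines mark 2-fold, and the median is 0.62 on day 6 and 2.01 on day 16.

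Among the cyclins, Ccnb1 had the largest difference of all 33 genes on day 16. It encodes cyclin B1, which is destroyed at anaphase to end mitosis (chromosome 13, 101548693 to 101556441 in mm9). It stood at 11.2 FPKM in D0, 12.5 in D3, 21.2 in D6T-, 17.5 in D9T-, 22.3 in D12S+ and 71.5 in D16S+. On the unsuccessful route it stood at 11.4 FPKM in D6T+, 5.27 in D9T+, 9.45 in D12S- and 7.499 in D16S-, and at the end points at 42.3 in iPSCs and 42.96 in mESCs. D16S+ was thus above every other library and D9T+ below every other. The log2 difference between D16S+ and D16S- was 3.09, and the intervals cuffdiff gave to these values, 3.47 to 139.5 FPKM and 0 to 17.1 FPKM, overlapped. The median half-width of such intervals over the 33 genes was 104% of the value, and the intervals overlapped for all 33 genes in every comparison made here. Of the 14178 kept genes, 2 had intervals apart between D16S+ and D16S-, both higher in D16S+. Between iPSCs and D0, 66 had them apart and higher in iPSCs and 74 lower. Overlap was thus common to nearly all kept genes in these comparisons.

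Ccnb2 encodes the other B-type cyclin of somatic cells (chromosome 9, 70255495 to 70269361). Its level was 124 FPKM in D16S+, 28.7 in D16S- and, at its highest, 156 in mESCs. The ratio of Ccnb1 to Ccnb2 within a library, in which the scaling of the library cancels, was 0.1901 in D0, 0.576 in D16S+, 0.261 in D16S-, 0.362 in iPSCs and 0.275 in mESCs. Over the 12 libraries this ratio was lowest in D0 and highest in D16S+, without a steady rise between them. It was 0.424 in D3, 0.464 in D6T- and 0.506 in D9T-, then 0.248 in D12S+. D12S+ was below D12S- (0.279), while on the other sorted days the ratio was higher in the successful fraction. RefSeq lists a pseudogene of each, Ccnb1-ps and Ccnb2-ps, and as reads with more than 1 locus had been removed, the levels of both are uncertain. Ccna2, the cyclin of S and G2 phase, differed by 2.55 between D16S+ (38.6 FPKM) and D16S- (5.77 FPKM), and Cdk1, the kinase itself, by 1.77 (71.9 and 20.4 FPKM). The locus given for Ccna2 also holds Exosc9.

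The chromosomal passenger complex places the kinase Aurora B at the inner centromere and later at the spindle midzone. Between D16S+ and D16S- its 4 genes differed by 1.65 to 2.06. Aurkb, the kinase, went with 80.7 and 20.05 FPKM in these libraries, Incenp, the scaffold, with 94.8 and 29.5, and Cdca8 (Borealin) with 114 and 34.3. Birc5 (Survivin), which docks the complex on centromeric chromatin, stood at 82.8 FPKM in D0, and at 94.99 and 22.1 in D16S+ and D16S-. Its ratio to Incenp was 1.59 in D0, 1.002 in D16S+, 0.749 in D16S- and 1.79 in mESCs, the last of these being the highest. The ratio did not keep 1 order between the routes. It was 1.41 in D6T- and 1.55 in D6T+, 1.27 in D9T- and 0.997 in D9T+, and 0.909 in D12S+ and 0.959 in D12S-. Birc5 also had the lowest difference of the 33 genes between D16S- and D0 (-1.86).

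The other mitotic kinases and TPX2 differed by 1.86 to 2.17 between D16S+ and D16S-. Plk1, which drives mitotic entry and centrosome maturation, was at 85.5 FPKM in D0, and at 101 and 27.2 in D16S+ and D16S-. For Aurka, the spindle pole kinase, the values were 53.3, 105 and 28.02 FPKM in the same order. Tpx2, which activates Aurora A on the spindle, had 30.9, 51.2 and 12.6 FPKM, at a locus that also holds the microRNA gene Mir5622. Nek2, a kinase of centrosome splitting, had 12.8, 31.3 and 6.17 FPKM. All 4 were thus above D0 in D16S+ and below it in D16S-.

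The spindle checkpoint holds the gene that varied least. Bub3 encodes a WD-repeat protein that brings BUB1 and BUBR1 to kinetochores (chromosome 7, 138703904 to 138715412). It stood at 65.1 FPKM in D0, 53.5 in D3, 57.2 in D6T-, 53.3 in D9T-, 61.6 in D12S+ and 61.3 in D16S+. The other values were 52.1 FPKM in D6T+, 46.3 in D9T+, 45.6 in D12S-, 37.6 in D16S-, 69.1 in iPSCs and 63.2 in mESCs. Its highest value was 1.84 times its lowest, compared with 13.6 times for Ccnb1, and its difference between D16S+ and D16S- was 0.69.

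Bub1, the kinetochore kinase of the checkpoint, was near the limit of the filter in the fibroblasts, with 1.15 FPKM in D0 and 0.959 in D3, and had 8.29 and 0.995 FPKM in D16S+ and D16S-. The ratio of Bub1 to Bub3 was 0.0176 in D0 and 0.135 in D16S+, the lowest and highest of the 12 libraries. On day 16, Bub1b had 67.8 and 14.3 FPKM in the SSEA-1+ and SSEA-1- fractions, and Ttk (MPS1), the kinase that starts checkpoint signalling, had 12.5 and 2.34. Mad2l1 (MAD2), an inhibitor of CDC20, was the only one of the 33 genes with its highest level in D12S+, at 18.5 FPKM against 5.08 in D12S-. Its difference of 1.68 was the largest of the 33 genes on day 12.

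Of the genes that trigger anaphase, Ube2c and Cdc20 had the highest FPKM of the 33 in every library. Ube2c, the ubiquitin-conjugating enzyme of the anaphase-promoting complex, was at 187 FPKM in D0, 73.3 in D9T+, and 291 and 96.5 in D16S+ and D16S-. Cdc20, the activator of that complex, had 130.3, 54.1, 228 and 69.5 FPKM in the same order, at a locus that also holds Elovl1. The ratio of Ube2c to Cdc20 stayed between 1.20 and 1.56 over the 12 libraries. Espl1, which encodes separase, the protease that cuts cohesin, had its highest level in mESCs (74.2 FPKM), above D16S+ (39.8), D0 (11.4) and D16S- (7.37).

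At the centromere, Cenpa, the histone H3 variant that marks it, was at 69.1 FPKM in D0, 157 in mESCs, and 148 and 35.6 in D16S+ and D16S-. Ndc80 and Nuf2 encode partners in the complex that grips microtubules. Ndc80 was at 8.79 FPKM in D0 and at its highest in D16S+ (13.5). Nuf2 was the only gene of the 33 with its highest level in D0 (4.41 FPKM), close to mESCs (4.24), D6T- (3.93) and D16S+ (3.88). Both were higher in D16S+ than in D16S-, by 1.97 and 1.27. Cenpe and Cenpf, large coiled-coil proteins of the outer kinetochore, had 9.46 and 11.8 FPKM in D16S+, their highest, and 2.498 and 2.36 FPKM in mESCs.

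The kinesins and the cytokinesis genes were at least 2-fold higher in D16S+ than in D16S-, except Anln. Kif11 (Eg5), which pushes the spindle poles apart, was at 3.37 FPKM in D0, and at 18.2 and 2.59 in D16S+ and D16S-. Kif23, a motor of the spindle midzone, had 27.9 and 6.77 FPKM in these fractions, and Kif2c had 56.3 and 9.41. Kif20a, another midzone motor, had 89.2 and 18.5 FPKM, at a locus that also holds Brd8 and Cdc23. Prc1, the bundler of midzone microtubules, had 60.3 and 13.4 FPKM, and Ect2 had 29.4 and 5.37. Anln, a scaffold of the contractile ring, had 28.5 and 14.5 FPKM, a difference of 0.93. Top2a had 103 and 20.003 FPKM.

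The ends of the routes lay on opposite sides of the fibroblasts. From D0 to D16S+, 31 of 33 genes were higher, 18 of them at least 2-fold (background 20%), with a median of 1.09. Bub3 and Nuf2 were lower, neither by 2-fold (background 20.9%). From D0 to D16S-, 32 of 33 were lower, 12 of them at least 2-fold (background 11.4%), with a median of -0.90. Those past 2-fold were Cdk1, Ccna2, Ccnb2, Birc5, Plk1, Tpx2, Cenpe, Ndc80, Nuf2, Kif20a, Kif23 and Kif2c. Ect2 alone was higher in D16S- (0.40), and not by 2-fold (background 12.8%). These comparisons share D0. Relative depth was 1.51 in D16S+ and 0.999 in D16S-, and the fibroblast, pluripotency and epithelial markers differed between these libraries as given above. The part of depth and of cell makeup in the result was not tested.

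Most of the genes were higher in iPSCs than in the fibroblasts, and the medians of iPSCs and mESCs were close. From D0 to iPSCs 31 of 33 genes were higher, with a median of 0.91. At least 2-fold higher were 11 (background 18.7%) and none was 2-fold lower (background 21.6%). The largest differences were those of Ect2 (2.38), Espl1 (2.11), Ccnb1 (1.82) and Kif11 (1.68), and the 5 genes of the centromere and kinetochore had a median of 0.20. Scaled to the same total FPKM, 21 of the 33 genes were at least 2-fold higher and the median was 1.15, in a setting that moved the median of all kept genes by 0.16. The background was not computed under this scaling.

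From D16S+ to iPSCs the median was -0.24, with 26 of 33 genes lower. Top2a (-1.09) was the single gene at least 2-fold lower (background 7.77%), and none was 2-fold higher (background 4.38%). Between iPSCs and mESCs the median was -0.04, with 14 genes higher in iPSCs and 19 lower. Cenpf (1.22) was the single gene at least 2-fold higher (background 6.79%), and none was 2-fold lower (background 7.41%), Bub1b having the lowest difference (-0.72).

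**Figure D4:**
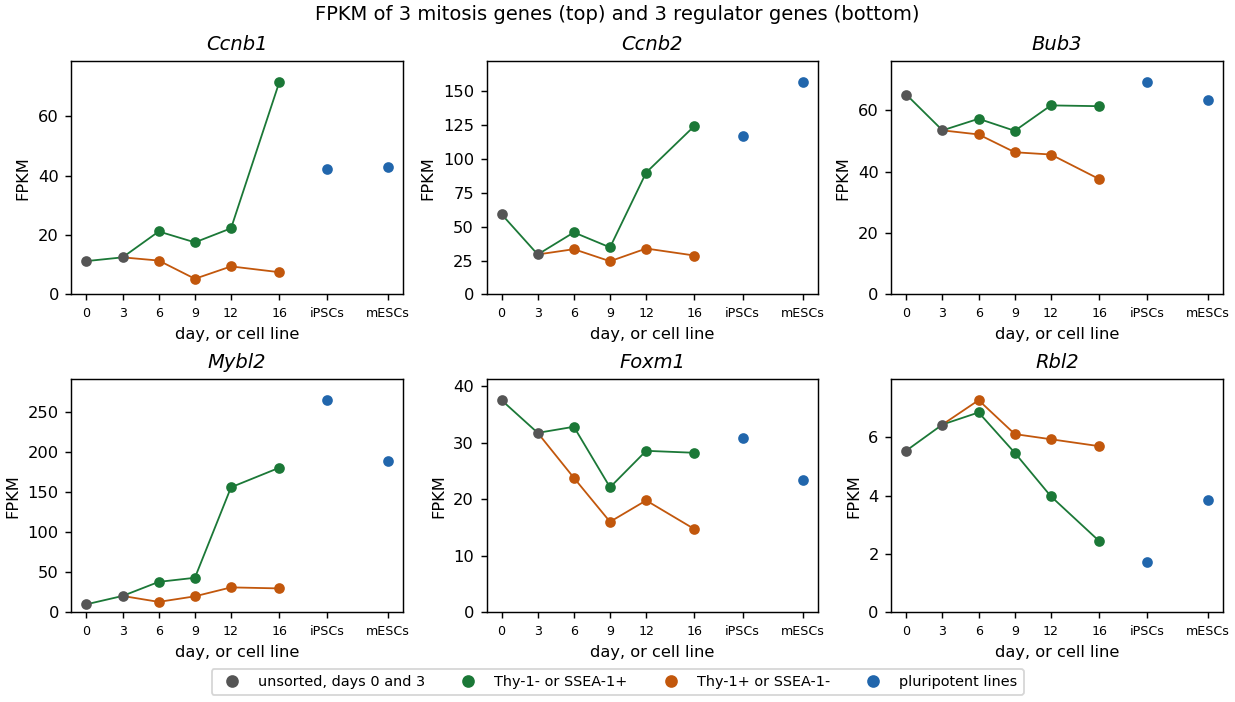
FPKM of Ccnb1, Ccnb2 and Bub3 (top) and of the regulator genes Mybl2, Foxm1 and Rbl2 (bottom) by day on the successful route (green) and the unsuccessful route (orange), with iPSCs and mESCs in blue and 1 library per point. On day 16 the values are 71.5 and 7.499 FPKM for Ccnb1 and 180.5 and 29.9 FPKM for Mybl2, while Rbl2 is lower in D16S+ than in D16S-.

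The transcription factors known to act on such promoters were followed in a list of 23 genes of the MuvB, B-MYB, FOXM1, E2F, pocket protein and NF-Y families. Of these, 8 were at least 2-fold higher in D16S+ than in D16S- (background 11.8%) and 0 at least 2-fold lower (background 15.2%), with a median of 0.67. Mybl2 encodes B-MYB, which joins MuvB to switch on G2 and M phase genes. It was at 10.03 FPKM in D0, 20.4 in D3, 38.04 in D6T-, 43.1 in D9T-, 156 in D12S+ and 180.5 in D16S+. The other values were 13.03 FPKM in D6T+, 19.99 in D9T+, 31.1 in D12S-, 29.9 in D16S-, 265 in iPSCs and 189 in mESCs. It was thus higher on the successful route on each sorted day, and in D16S-, where 32 of the 33 mitosis genes were below D0, Mybl2 was above D0 (1.48).

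Foxm1, a forkhead activator of the same genes, had its highest level in D0 (37.5 FPKM), with 28.2 and 14.7 FPKM in D16S+ and D16S-. Rbl2 encodes p130, the pocket protein of the repressive DREAM complex in resting cells. It had 5.54 FPKM in D0, 2.45 and 5.696 in D16S+ and D16S-, and 1.72 in iPSCs, and its difference between the fractions of day 16 (-0.96) was the lowest of the list. Rbl1 (p107) went the other way, with 4.49 and 1.35 FPKM in these fractions. E2f1, an activator of S phase genes, had 33.3 and 23.3 FPKM, E2f4, a repressor in DREAM, had 90.8 and 68.7, and Lin9, a core MuvB subunit, had 4.67 and 2.16.

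Other genes of the pathway were described by counts. In a list of 66 other mitosis genes, of which 62 were kept, the median difference between the fractions was 0.54 on day 6, 0.58 on day 9, 0.83 on day 12 and 1.60 on day 16. On day 16, 54 of the 66 were at least 2-fold higher in D16S+ (background 11.8%), and the differences ran from Cdca5 (sororin), which protects cohesin, at 2.78 to Zwint, a kinetochore protein, at -0.11. The 17 genes of the anaphase-promoting complex and its regulators had medians of 0.02, 0.10, 0.18 and 0.49 on the same days, and 3 of 17 were at least 2-fold higher in D16S+, beside the same 11.8% of all kept genes. Fbxo5 (EMI1), an inhibitor of that complex, had the largest difference of these 17 genes on each day, with 2.83 on day 16 (22.8 and 2.36 FPKM).

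Genes of DNA replication, which act in S phase, were also higher on the successful route at the median. The median difference of 35 such genes was 0.67 on day 6, 0.59 on day 9, 0.75 on day 12 and 1.72 on day 16. All 35 were higher in D16S+ than in D16S-, 27 of them at least 2-fold (background 11.8%). From D0 to iPSCs their median was 1.13, with 21 of 35 at least 2-fold higher (background 18.7%), beside 0.91 and 11 of 33 for the mitosis genes. From D16S+ to iPSCs it was 0.32, beside -0.24 for the mitosis genes, and between iPSCs and mESCs it was -0.36, beside -0.04. The difference between the lists was not tested.

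**Figure D5:**
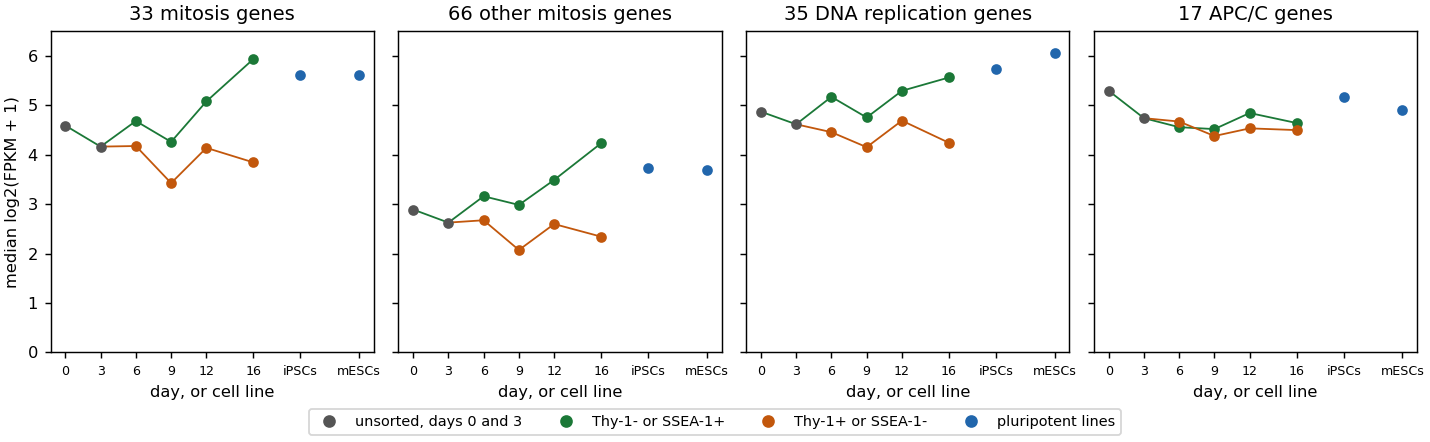
Median log2(FPKM + 1) of 4 gene lists by day on the successful (green) and unsuccessful (orange) route, with iPSCs and mESCs in blue. On day 16 the medians are 5.94 and 3.85 for the mitosis genes, and 4.64 and 4.50 for the anaphase-promoting complex (APC/C).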

How the data were processed

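Messenger RNA of 12 conditions was measured in 1 library each, and groups were taken from the sample titles. The authors prepared stranded TruSeq libraries, mapped reads to mm9 with STAR, discarded reads that had over 2 mismatches or more than 1 locus, and ran cuffdiff. The deposited values are FPKM with the ends of the cuffdiff interval (95% by default). Versions, annotation and library scaling are not given in the sources used here. Genes with near-identical copies lose reads in the second of these filters, and the interval is a model from 1 library. A further 12 columns of cuffdiff status words were not used. Absolute depth is unknown. Relative depth came from the most common ratio of values under 0.5 FPKM between a library and D0.

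Values were analysed as log2(FPKM + 1) in Python 3.11.15 with pandas 2.3.3, over genes of at least 1 FPKM in at least 1 library. Differences on this scale understate the change of low genes. A gene was counted as higher or lower past 2-fold, without a test, and counts in lists stand beside the share of all kept genes (background). All 33 genes are named, and of other lists the genes with the highest or lowest difference and 7 regulators (Foxm1, Mybl2, E2f1, E2f4, Rbl1, Rbl2 and Lin9). Likeness was the Pearson r with the mean profile of the 33 genes. Genes and lists were chosen with earlier results of these data known. The functions were tested on simulated data. Alternatives were the pseudocount, 3 scalings, the filter and the fold threshold. Promoters are from RefSeq (GRCm38.p6), placed in mm9 by exact match. A gene among those most alike is not reported here.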

Additional observations from a re-analysis of the deposited data

Results flagged for a closer look

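The following results stood out because the genes differed in opposite directions from an earlier library on the 2 routes, and with 1 library for each fraction the difference was not tested. From day 0 to day 16 the median log2 difference of the 33 mitosis genes was 1.09 in D16S+ and -0.90 in D16S-, and 30 of the 33 genes were higher in D16S+ and lower in D16S- than in D0. From day 12 to day 16, where each fraction has its own start, it was 0.57 from D12S+ to D16S+ and -0.39 from D12S- to D16S-, and 31 of the 33 genes were higher in D16S+ and lower in D16S- than in the matching fraction of day 12. Neither count was made over all kept genes, so the share of those that moved in this way is unknown.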

How the results depend on the processing

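Of 162 planned recomputations, 140 stayed within the margins (0.2 on the log2 scale for a median, 1.5 times for a count), 22 moved and 0 reversed. A change of sign was counted as reversed only where the reported median was past 0.2 in size. The median for iPSCs against mESCs went from -0.04 to 0.08 when scaled to the same total FPKM, and was counted as within the margin. The 140 include 24 without the filter that could not move, since all 33 genes had passed it. Beyond the planned ones, 24 recomputations left out the 4 genes whose locus holds another gene, an alternative chosen after seeing the data, and 1 of these moved. Scaled to the same total FPKM, the medians were -0.21 for D3 against D0 and 1.15 for iPSCs against D0, and the genes at least 2-fold higher were 21 for iPSCs against D0, 4 for D9T- against D9T+ and 3 for iPSCs against mESCs. This scaling moved the median of all kept genes by 0.14 for D3 against D0 and by 0.16 for iPSCs against D0. Scaled to the same upper quartile, 19 genes were higher for iPSCs against D0 and 4 for D9T- against D9T+. Scaled by the median of ratios, 0 genes were higher for D6T- against D3 and 0 for D6T- against D6T+. With a pseudocount of 0.1, the higher genes were 2 for D6T- against D3, 6 for D9T- against D9T+ and 3 for iPSCs against mESCs, and 1 was lower for D3 against D0. With a threshold of 1.5-fold, 1 gene was higher and 9 lower for D3 against D0, the higher genes were 15 for D6T- against D3, 20 for D6T- against D6T+, 24 for D9T- against D9T+, 30 for D12S+ against D12S- and 24 for iPSCs against D0, and 5 were higher and 2 lower for iPSCs against mESCs. These counts stand without a background, as the share of all kept genes was computed only for the deposited values at 2-fold. Without genes at a shared locus 1 gene was higher for D9T- against D9T+. The cause of these shifts was not tested beyond what the settings themselves change. Raising the filter to 5 FPKM left out only Nuf2 and moved no result past the margins. By within-library rank D9T+ stayed lowest and D16S+ highest. The median and counts for D16S+ against D16S- stayed within the margins in every setting. Depth limits the low genes most, and Bub1 was near 1 FPKM in several libraries. The labels give no replicate numbers, so no replicate block was fitted. A fit with the 4 sorted days as pairs was not run, since the days differ in time and in the sorting marker and are not replicates.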

Other observations

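Among 8774 other genes with at least 10 FPKM in at least 1 library, the 10 whose profile over the 12 libraries was most like the mean of the mitosis genes included Cdca2, 1700052N19Rik, Zwilch, Hmmr, Dlgap5, Tacc3, Gle1, Prim1 and Spag5, with r from 0.984 for Cdca2 to 0.972 for Spag5. Cdca2, Zwilch, Hmmr, Dlgap5, Tacc3 and Spag5 were in the list of other mitosis genes, and Prim1, a primase subunit, was in the replication list. Gle1 encodes an mRNA export factor. These r values are over 12 points that share depth and library with the genes they are compared with.

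The difference between iPSCs and mESCs was also described by transcript length. The 8 mitosis genes whose longest GENCODE M1 coding transcript has at least 4000 bases (Tpx2, Espl1, Cenpe, Cenpf, Kif11, Anln, Ect2 and Top2a) had a median of 0.43, and the other 25 a median of -0.11. The Spearman correlation with length was 0.215 over the 33 genes and 0.153 over 8112 kept genes with a mean of at least 5 FPKM. These are values across genes, which are not independent replicates. Of the 5 comparisons described in this way, the others gave -0.243 (iPSCs against D16S+), 0.373 (D16S+ against D16S-), 0.261 (D16S+ against D0) and 0.218 (D3 against D0) over the 33 genes. Over the 8112 genes these were -0.033, -0.014, 0.041 and 0.117 in the same order. Cenpf had 6.84 FPKM in iPSCs and 2.36 in mESCs.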
